A study of Mus musculus with 84 samples.

Results

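The 31 genes examined encode the steps that bring glucose into the cell, break it down to pyruvate, convert pyruvate to lactate and export it, gate pyruvate entry into the mitochondrion, and store or release glucose as glycogen. They were taken from a list of gene names and matched to the gene identifiers of the deposited count tables, which hold 48526 genes in the EAE experiment and 25773 genes in the experiment on astrocyte subtypes. All 31 had at least 10 counts over the EAE libraries. In the subtype experiment 29 reached 10 counts over the acutely isolated libraries and 30 over all 18 libraries, since Pygm was not in that table and Slc16a7 had no count in any isolated library.

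Glucose enters astrocytes through the carrier Slc2a1 and is trapped by a hexokinase, Hk1 or Hk2. Phosphofructokinase commits the sugar to glycolysis, and aldolase, of which Aldoc is the form that marks astrocytes in brain, splits it into triose phosphates. Astrocytes hold most of the glycogen of the central nervous system and are known to release lactate through monocarboxylate transporters.

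Astrocytes were sorted as ACSA-2pos cells without CD11B and CD45, with or without GLAST at the surface. In the EAE experiment (experimental autoimmune encephalomyelitis, a mouse model of multiple sclerosis) female C57BL/6J mice were immunized at 10 weeks of age with a MOG peptide in complete Freund's adjuvant and given pertussis toxin. Cells were taken at score 1 (E1, limp tail), at score 4 (E4, complete paralysis of the hind legs) and in chronic disease (Ech), and from unimmunized controls (C). Spinal cord GLASTneg cells gave 5 C, 5 E1, 6 E4 and 6 Ech libraries, hindbrain GLASTneg cells 5, 6, 6 and 6, and hindbrain GLASTpos cells 5, 6, 6 and 4. In the subtype experiment FVB/N wildtype mice gave 5 isolated groups of 3 libraries, and 3 more libraries came from cultured neonatal C57BL/6J astrocytes that stayed behind when microglia were shaken off. RNA of up to 2 mice was pooled per isolated library, and p-values measure the spread between such libraries. The bracketed names of 64 of the 66 EAE libraries share a number with a library of another population at the same stage. The labels do not say what it counts, so these libraries may come from the same mice. Comparisons between stages of 1 population share no number.

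The EAE libraries held 1313682 to 4895220 counts, the isolated FVB/N libraries 416768 to 1269316 and the cultured libraries 2183464 to 8188074. For 12 of the 15 FVB/N libraries the group in the sample labels differed from the group name in the authors' table of normalized counts, so both names are given. Region markers of the libraries labelled spinal cord GLASTneg and hindbrain GLASTneg, given below, go with the authors' names and not with the labels. The title of E1 spinal cord replicate 1 says spinal cord and its region field says hindbrain, and the title was used. Levels are CPM, the count of a gene scaled to library size with TMM factors, and the EAE and subtype tables were scaled separately. Reads come from 3′ ends, so levels were not divided by transcript length.

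Promoter windows of the aldolase and lactate dehydrogenase pairs and of Hk2 are shown because the balance of isoforms in these steps differed between groups, as described below. Each runs from 250 bases before to 50 bases after a transcript start in RefSeq (GRCm38.p6), on the strand of the gene, and of several windows of a gene the one with most starts of protein-coding transcripts is shown. Capitals mark ACGTG and GCGTG on either strand, 5-base cores of the sites that hypoxia-inducible factor is known to bind, and CACGTG holds ACGTG on both strands.
Aldoa, chr7:126799129-126799428, minus strand: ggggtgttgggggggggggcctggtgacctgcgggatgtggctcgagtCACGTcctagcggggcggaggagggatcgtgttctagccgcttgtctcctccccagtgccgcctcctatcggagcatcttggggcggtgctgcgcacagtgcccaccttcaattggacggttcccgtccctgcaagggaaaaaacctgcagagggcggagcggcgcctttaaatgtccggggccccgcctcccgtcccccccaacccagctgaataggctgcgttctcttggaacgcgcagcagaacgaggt
Aldoc, chr11:78322823-78323122, plus strand: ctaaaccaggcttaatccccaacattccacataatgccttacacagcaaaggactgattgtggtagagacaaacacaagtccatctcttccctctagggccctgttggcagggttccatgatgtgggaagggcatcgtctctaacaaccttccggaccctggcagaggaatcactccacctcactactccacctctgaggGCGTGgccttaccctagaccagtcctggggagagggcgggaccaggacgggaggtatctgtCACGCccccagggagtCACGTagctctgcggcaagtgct
Ldha, chr7:46845554-46845853, plus strand: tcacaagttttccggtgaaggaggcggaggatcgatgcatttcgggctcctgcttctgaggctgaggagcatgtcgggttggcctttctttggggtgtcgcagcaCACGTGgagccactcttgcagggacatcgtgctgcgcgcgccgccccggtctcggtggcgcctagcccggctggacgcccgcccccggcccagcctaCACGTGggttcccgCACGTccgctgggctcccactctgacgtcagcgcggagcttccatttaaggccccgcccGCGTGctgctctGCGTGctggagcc
Ldhb, chr6:142507908-142508207, minus strand: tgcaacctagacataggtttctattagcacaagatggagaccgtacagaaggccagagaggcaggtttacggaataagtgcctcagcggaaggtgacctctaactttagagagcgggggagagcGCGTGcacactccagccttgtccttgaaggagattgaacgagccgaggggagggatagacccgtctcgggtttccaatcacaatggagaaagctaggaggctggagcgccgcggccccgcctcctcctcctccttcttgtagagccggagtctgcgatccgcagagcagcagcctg
Hk2, chr6:82774405-82774704, minus strand: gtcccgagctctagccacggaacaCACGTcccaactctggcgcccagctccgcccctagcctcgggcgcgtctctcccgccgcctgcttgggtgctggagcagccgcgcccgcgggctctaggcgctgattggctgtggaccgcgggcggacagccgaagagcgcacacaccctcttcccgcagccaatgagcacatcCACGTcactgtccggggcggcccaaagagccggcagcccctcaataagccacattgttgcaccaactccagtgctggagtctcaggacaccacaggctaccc

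The Ldha window held 5 marked stretches and the Ldhb window 1, and the Aldoc window held 3 and the Aldoa window 1. The Hk2 window held 2. Of the 2 windows of Hk1, which are not shown, the 1 that the same rule picks held 0 and the other held a core. Of the 31 genes, 30 were matched to the promoter table, and 25 of them held either core in at least 1 window, against 46.73% of the 27025 genes in the table. A gene with more windows has more chances to hold a core. By window, 33 of 45 windows of the members (73.33%) held either core, against 43.77% of all 32851 windows. All genes of the table were taken, without matching for level or base composition. The ACGTG core was present for 19 of the 30, against 21.78% of all genes. These are matches of letters and not measured binding sites.

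In spinal cord astrocytes most of the genes that changed during EAE fell. At E1, 14 of the 31 genes were lower than in controls and 0 higher, at E4 17 were lower and 2 higher, and at Ech 16 were lower and 0 higher (edgeR quasi-likelihood test, adjusted p under 0.05). Over all 23324 genes tested, 4.48% were lower and 3.94% higher at E1, 12.7% and 9.76% at E4, and 11% and 7.64% at Ech. The median log2 change of the 31 genes was -0.63 at E1, -1.11 at E4 and -1.04 at Ech, against 0 over all genes tested. Among genes averaging 5 CPM or more in that comparison, 8.03% were lower at E1, 19.8% at E4 and 17.1% at Ech.

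The numbers after S that close the bracketed library names are called sheet numbers here, and the labels do not say what they count. They were split at 57, which parts all hindbrain GLASTneg from all GLASTpos libraries. Sheet numbers were 57 or more in all 5 spinal cord controls, in 4 of 5 E1, 1 of 6 E4 and 4 of 6 Ech libraries. With that split as a covariate 13, 16 and 16 members passed.

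**Figure D1:**
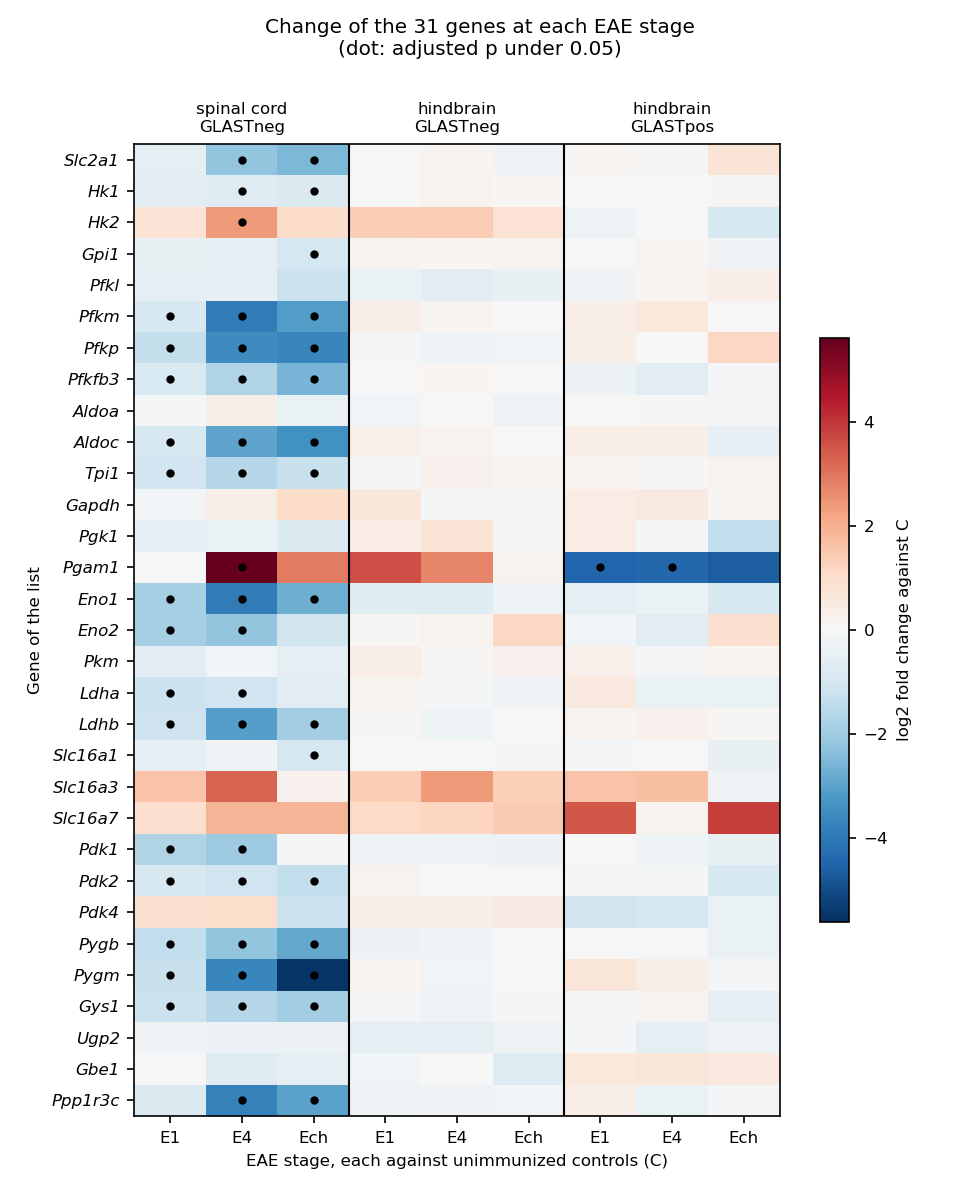
Log2 fold change against controls (colour) of the 31 genes (rows) at E1, E4 and Ech (columns) in the 3 astrocyte populations of the EAE experiment, with a dot where the adjusted p was under 0.05. Spinal cord holds 14, 19 and 16 dots at E1, E4 and Ech, and the hindbrain populations hold 2, both for Pgam1 in GLASTpos cells.

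Markers of other cell types differed between the spinal cord groups as well. The summed level of 8 astrocyte markers was 7683 to 10530 CPM in controls, 2942 to 12810 at E1, 2191 to 3798 at E4 and 2906 to 5434 at Ech. The astrocyte glutamate transporter Slc1a2 had a median of 3920 CPM in controls, 294.4 at E4 and 272.5 at Ech. The sum of 10 oligodendrocyte markers was 13820 to 39630 CPM in controls, 25260 to 57820 at E1, 28170 to 71980 at E4 and 24370 to 39410 at Ech. The sum of 4 markers of oligodendrocyte precursors had a median of 286.7 CPM in controls and 1344 at Ech, and that of 14 myeloid markers a median of 30.96 CPM in controls and 153.8 at E4. The sum of neuron markers was 225 to 416.3 CPM in controls, 420.2 to 802.3 at E1 and 492.2 to 745.6 at E4, above every control at both stages, and 211.5 to 443 at Ech. Within that sum Rbfox3 went the other way at E4. It was at 11.18 to 41.15 CPM in controls, 2.37 to 24.89 CPM at E1 and 0.564 to 9.34 CPM at E4. The sum of 8 T cell markers had a median of 2.808 CPM in controls and 21.78 CPM at E4, where it reached 59.31 CPM. The T cell marker Cd3e and the endothelial marker Pecam1 were at 0 in all 5 control libraries and reached at most 4.885 and 4.043 CPM at E4. In bulk libraries fewer cells of a type and less RNA per cell cannot be told apart, and the part of these shifts in the results for the 31 genes was not tested.

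**Figure D2:**
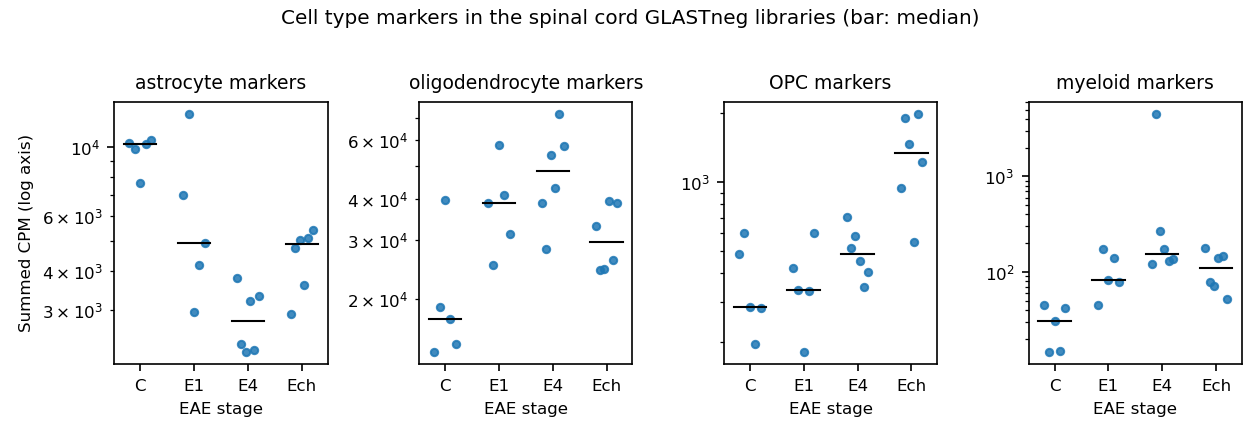
Summed CPM (log axis) of astrocyte, oligodendrocyte, precursor (OPC) and myeloid markers in each spinal cord GLASTneg library (points) by EAE stage, with the median as a bar. For the astrocyte markers the 6 E4 libraries lie at 2191 to 3798 CPM, under the 7683 to 10530 CPM of the 5 controls, and 1 E4 library lies at 4529 CPM for the myeloid markers.

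A pair of spinal cord libraries stood apart. E4 replicate 2 had a myeloid marker sum of 4529 CPM, with Itgam, the gene of CD11B, at 519.8 CPM. E1 replicate 2 had an astrocyte marker sum of 12810 CPM, and its Aldoc, Pygm and Ppp1r3c were within the control range. Without E4 replicate 2, 21 of the 31 genes passed at E4, where Gpi1 (log2 -0.63), Pfkl (-1.38) and Pkm (-0.60) passed as lower and Hk2 did not pass. Without E1 replicate 2, 16 passed at E1, where Hk1, Pkm and Ppp1r3c passed as lower and Ldha did not pass. At E1, 8 passed without replicate 3 and 8 without replicate 4, and 11 of the 14 calls at E1 were lost under at least 1 alternative, against 4 of 19 at E4 and 0 of 16 at Ech. Control replicate 3 had an oligodendrocyte marker sum of 39630 CPM, within the E4 range, and it was the lowest of the 5 controls for 12 of the 31 genes, among them Aldoc (3097 CPM), Slc2a1 (250 CPM), Hk1 (93.17 CPM), Ldhb (127 CPM) and Pygb (245.7 CPM). Its Pfkm (111.5 CPM) and Pfkp (188.6 CPM) were within the range of the other controls. Control replicate 2, with an oligodendrocyte marker sum of 18950 CPM, was the lowest for 10 of the 31 genes.

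The RNA of the glucose carrier was lower at the later stages. Slc2a1 was at 257.3, 297.5, 250, 278.8 and 293.4 CPM in the control spinal cord libraries and at 210.6, 402.9, 137.5, 80.15 and 144.8 CPM at E1. It ranged from 30.55 to 111.5 CPM at E4 (median 46.38) and from 27.58 to 85.75 CPM at Ech (median 45.97). The E1 libraries lay on both sides of the controls, and every E4 and Ech library lay under every control. The log2 change was -0.50 at E1 (adjusted p = 0.333, edgeR), -2.22 ± 0.32 (SE) at E4 and -2.51 ± 0.32 at Ech (adjusted p of 4.71e-08 and 2.28e-09, edgeR).

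The hexokinases differed from each other. Hk1, the form bound to mitochondria in brain, was at 136.3, 185.7, 93.17, 156.1 and 149.3 CPM in controls and at 63.5 to 105.6 CPM at E4 (median 87.5), a log2 change of -0.73 ± 0.22 (adjusted p = 0.0114, edgeR). This call was lost without control replicate 2 (adjusted p = 0.0647, edgeR) and with a covariate for sheet numbers of 57 or more (-0.54, adjusted p = 0.291, edgeR). At Ech Hk1 fell by 0.81 ± 0.22.

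Hk2, the form typical of muscle, was at 0.992, 6.56, 7.74, 6.28 and 6.08 CPM in controls. At E4 its median was 8.82 CPM and replicate 2 was at 146.5 CPM, far above the other 5 libraries at 2.66 to 11.6 CPM. The call of Hk2 at E4, 2.39 ± 0.51 on the log2 scale (adjusted p = 0.000168, edgeR), was lost without that library (0.34, adjusted p = 0.539). The log2 ratio of Hk1 to Hk2 within a library, on counts plus 1, averaged 4.78 ± 1.08 (SD, n = 5) in controls and 2.85 ± 0.78 (SD, n = 6) at Ech, with no overlap. The ratio was 3.81-fold lower at Ech (exact permutation test, two-sided, p = 0.002165, the smallest it can give with 6 against 5, and 0.02381 adjusted over 44 ratio tests). With medians in place of means no ratio of the EAE and FVB/N comparisons passed. At E4 the difference of -1.77 did not pass (exact permutation test, p = 0.0671, adjusted 0.1571).

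Phosphofructokinase showed large falls. Pfkm, the muscle form, was at 158.6, 107.9, 111.5, 147.9 and 142.7 CPM in controls and at 42.56, 167.3, 37.13, 46.24 and 65.79 CPM at E1, where replicate 2 was above every control and the other 4 below. It ranged from 4.67 to 14.33 CPM at E4 (median 7.38) and from 8.63 to 23.23 CPM at Ech (median 16.23), with no overlap with controls. The fall was 14.9-fold at E4 and 8.62-fold at Ech (log2 -3.90 ± 0.27 and -3.11 ± 0.25, adjusted p of 9.2e-20 and 1.395e-16, edgeR).

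Pfkp, the platelet form, was at 251.3, 124.3, 188.6, 203.2 and 247.1 CPM in controls, with medians of 14.6 CPM at E4 and 17.5 CPM at Ech, and fell 11.6-fold and 12.4-fold. Pfkl, the liver form, was at 8.92 to 25.27 CPM in controls and passed at no stage, with a log2 change of -0.45 at E4 (adjusted p = 0.595, edgeR). Pfkfb3 makes the activator of phosphofructokinase. It was at 155.8 to 201.7 CPM in controls and fell at all 3 stages (log2 -0.86 ± 0.26 at E1, -1.685 ± 0.255 at E4 and -2.62 ± 0.26 at Ech). The E1 call was lost without control replicate 4 or 5 or E1 replicate 3 or 5 (adjusted p of 0.05828 to 0.1036, edgeR). Gpi1, the isomerase ahead of this step, fell at Ech (-0.99 ± 0.19, adjusted p = 5.31e-05, edgeR) and had a change of -0.48 at E4 (adjusted p = 0.06355).

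The aldolase step changed its balance of isoforms. Aldoc was at 3937, 4023, 3097, 4077 and 5485 CPM in controls and at 1932, 4557, 1174, 1841 and 1596 CPM at E1. It ranged from 348.6 to 684.2 CPM at E4 (median 547.8) and from 264.3 to 595.6 CPM at Ech (median 389.1), so that every library of both stages lay under every control. The falls were 7.78-fold and 10.45-fold (log2 -2.96 ± 0.22 and -3.385 ± 0.22, adjusted p of 2.68e-18 and 1.6e-20, edgeR).

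Aldoa, the form found in most tissues, was at 153.7, 211.3, 222.2, 181.8 and 288.2 CPM in controls, at 194.7 to 376.9 CPM at E4 (median 258.8) and at 106.5 to 204.4 CPM at Ech (median 159.8). The groups overlapped, and its log2 changes of -0.09, 0.35 and -0.38 at E1, E4 and Ech did not pass (adjusted p of 0.9005, 0.172 and 0.142, edgeR). There was a median of 19.02 Aldoc counts for each Aldoa count in controls, 11.38 at E1, 1.78 at E4 and 2.56 at Ech. The ratio of Aldoa to Aldoc was 9.95-fold higher at E4 and 8.22-fold higher at Ech, with no overlap with controls (exact permutation test, two-sided, p = 0.002165 for each, adjusted 0.02381). At E1 it was 1.91-fold higher and did not pass (exact permutation test, p = 0.01587, adjusted 0.0582).

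**Figure D3:**
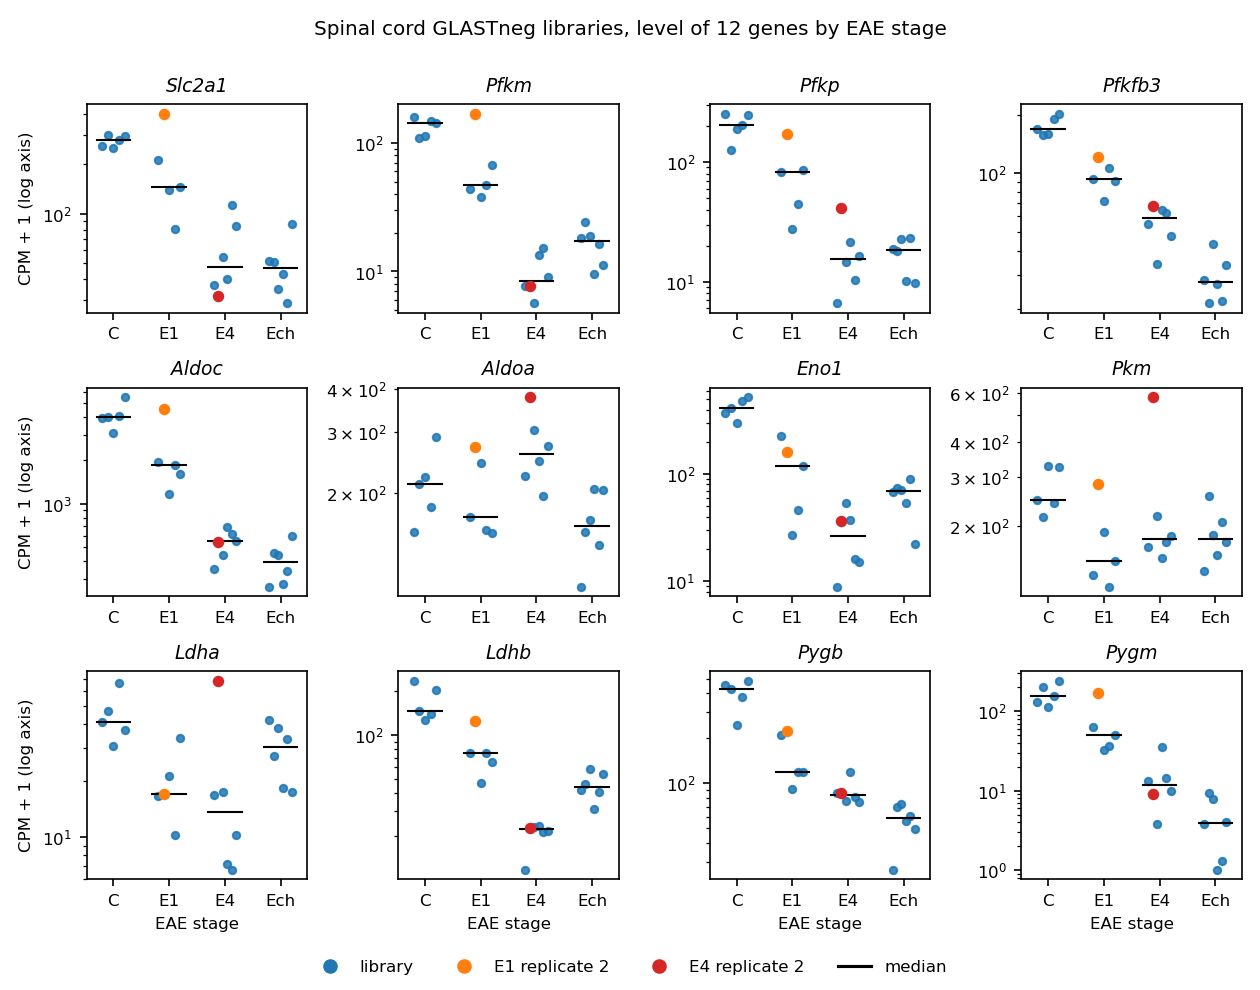
Level of 12 genes in each spinal cord GLASTneg library (points, CPM plus 1 on a log axis) by EAE stage, with the median as a bar, E1 replicate 2 in orange and E4 replicate 2 in red. Aldoc lies at 348.6 to 684.2 CPM at E4 under controls of at least 3097 CPM, while Aldoa at 194.7 to 376.9 CPM overlaps its controls.

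Lower glycolysis was mixed. Tpi1, triosephosphate isomerase, was at 32.15 to 60.48 CPM in controls and at 8.44 to 23.36 CPM at E4, and fell at all 3 stages (log2 -1.06, -1.61 and -1.26). The enolase Eno1 was at 369.3, 414.6, 297, 480.1 and 520.3 CPM in controls and at 7.898 to 52.94 CPM at E4, a 15.2-fold fall (log2 -3.93 ± 0.47, adjusted p = 2.08e-10, edgeR). Eno2, the neuronal enolase, was at 14.91 to 92.18 CPM in controls and fell 3.58-fold at E1 and 4.685-fold at E4. Without control replicate 2, the library at 92.18 CPM, the E1 change was -1.30 on the log2 scale and did not pass (adjusted p = 0.05473, edgeR). Pkm, pyruvate kinase, passed at no stage, at 214.9 to 328.8 CPM in controls and a median of 179.2 CPM at E4, with replicate 2 at 579.1 CPM.

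Several genes of this block are uncertain. Gapdh was at most 32.71 CPM in any EAE library, and 82.87% of the 50-base words in the last 300 bases of its transcript also occur in 98 other genes. For Eno1 90.04% of such words occur in 1 other gene. Pgk1 ranged from 10.76 to 340.8 CPM within the controls and passed at no stage. Pgam1 was at 0 to 7.44 CPM in controls, at 708.5 and 211.8 CPM in E4 replicates 2 and 6, and at 0 to 16.92 CPM in the other 4 E4 libraries. Its log2 change at E4 was 5.59 ± 1.40 (adjusted p = 0.00154, edgeR), 3.87 without replicate 2 (adjusted p = 0.0241) and 2.41 with the sheet number as a covariate (adjusted p = 0.439).

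Of the lactate dehydrogenases, Ldhb fell at all 3 stages and Ldha at E1 and E4. Ldhb, the form that favours pyruvate, was at 236.5, 146, 127, 138.5 and 203.1 CPM in controls and at 73.68, 123.1, 45.82, 74.67 and 64.1 CPM at E1. It ranged from 10.72 to 22.56 CPM at E4 (median 21.44) and from 29.98 to 57.09 CPM at Ech (median 42.81). All 3 stages lay under the controls, with falls of 2.23-fold, 8.525-fold and 3.83-fold.

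Ldha, the form that favours lactate, was at 40.16, 45.92, 29.53, 65.31 and 36.5 CPM in controls, at 5.69 to 16.35 CPM in 5 of the E4 libraries and at 67.39 CPM in E4 replicate 2. Its log2 change was -1.21 ± 0.40 at E1, -1.13 ± 0.38 at E4 (adjusted p = 0.0234, edgeR) and -0.61 at Ech (adjusted p = 0.253). At E4 it was -2.04 without replicate 2, and the call was lost without any 1 of the other 5 E4 libraries, without control replicate 4 and with the sheet number as a covariate (adjusted p = 0.1575, edgeR). The E1 call had an adjusted p of 0.0465 (edgeR) and was lost under 10 alternatives. The ratio of Ldha to Ldhb was 2.76-fold higher at E4 and 2.43-fold higher at Ech without passing (exact permutation test, p = 0.05195 and 0.01299, adjusted 0.1345 and 0.0582).

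The monocarboxylate transporters gave 1 call. Slc16a1 (MCT1) was at 90.72 to 134.4 CPM in controls and at 79.16 to 150.1 CPM at E4, where it did not pass, and fell 1.92-fold at Ech to a median of 53.53 CPM (adjusted p = 0.000427, edgeR). Slc16a3 (MCT4), a lactate exporter of glycolytic cells, was at 0 to 3.74 CPM in controls and at 92.1 CPM in E4 replicate 2, against 0.2275 to 4.513 CPM in the other E4 libraries. Slc16a7 (MCT2) was at 4.46, 7.545, 12.9, 3.14 and 0 CPM in controls and at 15.57 to 27.85 CPM at E4. All E4 libraries lay above all controls, but the log2 change of 1.90 did not pass (adjusted p = 0.112, edgeR). The ratio of Slc16a1 to Slc16a3 passed at no stage.

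The pyruvate dehydrogenase kinases hold pyruvate back from oxidation. Pdk2 was at 31.82 to 80.02 CPM in controls and fell at all 3 stages (log2 -0.89, -1.11 and -1.36). Pdk1 was at 14.43 to 28.75 CPM in controls, fell 3.18-fold at E1 and 4.05-fold at E4, and was at 3.18 to 29.68 CPM at Ech (log2 -0.05, not passing). The E1 call of Pdk2 was lost within the spinal cord libraries alone (adjusted p = 0.08572, edgeR) and without control replicate 5 (-0.67, 0.1456), E1 replicate 3 or E1 replicate 4. That of Pdk1 was lost within the spinal cord libraries alone and without control replicate 1, E1 replicate 3 or E1 replicate 4 (adjusted p of 0.05667 to 0.1448, edgeR). Pdk4 was at 1.72 to 8.48 CPM in controls and passed at no stage.

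Glycogen genes fell on the side of breakdown and on that of synthesis. Pygb, the brain phosphorylase, was at 452.6, 423.2, 245.7, 375.9 and 483.4 CPM in controls and at 208.8, 223.8, 90.86, 117.1 and 117.2 CPM at E1, under every control. Its medians were 82.91 CPM at E4 and 57.47 CPM at Ech, and it fell at all 3 stages (log2 -1.385 ± 0.21, -2.195 ± 0.20 and -2.85 ± 0.21). Pygm, the muscle phosphorylase, was at 128.9, 199.4, 111.5, 153.9 and 242.9 CPM in controls, at 2.855 to 34.23 CPM at E4 and at 0 to 8.25 CPM at Ech, where it was 44.8-fold lower (log2 -5.49 ± 0.43, adjusted p = 1.965e-17, edgeR).

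Gys1, glycogen synthase, fell 2.32-fold, 3.06-fold and 3.91-fold over the stages. Ppp1r3c, which brings to glycogen the phosphatase that activates glycogen synthase, was at 84.3 to 115.6 CPM in controls and at 1.167 to 14.1 CPM at E4, a 13.6-fold fall (adjusted p = 6.47e-17, edgeR). Ugp2, which makes UDP-glucose, and the branching enzyme Gbe1 passed at no stage, with log2 changes of -0.33 and -0.73 at E4.

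Relative to the summed astrocyte markers of the same libraries the genes split. The change was positive for 20 of the 31 genes and negative for 11 at E4, and positive for 17 and negative for 14 at Ech. At E4 Eno1, Pfkm, Pygm, Ppp1r3c, Pfkp, Ldhb and Aldoc had values of -2.34, -2.05, -2.01, -1.96, -1.86, -1.24 and -1.17 on the log2 scale. Aldoa, Slc16a1, Pkm and Gpi1 had positive values of 2.14, 1.59, 1.49 and 1.31, and Tpi1 (0.22) and Pfkfb3 (0.10) were near 0. At Ech the value was -4.44 for Pygm, -2.27 for Aldoc and -1.72 for Pygb, and 0.76 for Aldoa, 0.78 for Ugp2 and 0.59 for Pkm. These differences of group means are a description without a test, and their signs depend on the markers in the sum. The sum went from a median of 10250 CPM in controls to 2766 CPM at E4. Within it Slc1a2 went from 3920 to 294.4 CPM and Aqp4 from 974.6 to 74.28 CPM, while Gfap went from 50.07 to 95.56 CPM. Aldoc and Ldhb fell less than Slc1a2 and Aqp4 at E4.

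Of 70 other genes of these pathways, 60 were tested in spinal cord, with 3 higher and 7 lower at E1, 2 higher and 15 lower at E4, and 3 higher and 19 lower at Ech. Over all genes the shares were 3.94% and 4.48% at E1, 9.76% and 12.7% at E4, and 7.64% and 11% at Ech, and the 3 higher genes at E1 are near that share. Phkg1 and Phka1, subunits of the kinase that activates phosphorylase, fell at E4 (log2 -5.635 ± 0.46 and -3.03 ± 0.27). Phkg1 was at 155.8 to 554.7 CPM in controls and at 0.564 to 13.48 CPM at E4. Ppp1r3d, a glycogen-targeting subunit like Ppp1r3c, fell by 3.96 ± 0.52. The neuronal glucose carrier Slc2a3 was lower at E4 (-1.345 ± 0.38). Bsg, the chaperone of MCT1 and MCT4, passed at Ech (-0.74 ± 0.19). Emb, the partner of MCT2, Pygl, the liver phosphorylase, and Mpc1 and Mpc2, the mitochondrial pyruvate carrier, passed at no stage in spinal cord.

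Of 18 genes of the response to hypoxia 17 were tested, with 1 higher and 1 lower at E1 and 0 higher and 5 lower at E4 and at Ech, and their median log2 change was 0.17 at E4. The counts at E1 are near the 3.94% higher and 4.48% lower of all genes, and 9.76% and 12.7% of all genes were called at E4. Vegfa, a typical target, had a median of 314.9 CPM in controls and 7.21 CPM at E4 (log2 -4.69 ± 0.39). Hif1a, the factor itself, fell at E4 and Ech (log2 -1.11 ± 0.23 and -1.64 ± 0.23).

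In hindbrain GLASTneg astrocytes 0 of the 31 genes passed at E1, E4 or Ech with edgeR and 0 with DESeq2, where 0.677%, 0.755% and 0.197% of all genes passed. At an unadjusted p under 0.05 there were 3, 3 and 1. Pgam1 was at 244.8 and 223.1 CPM in E1 replicates 1 and 5 and at 243.3 CPM in E4 replicate 2, and at 13.07 CPM or less in all other libraries of this population. Aldoc was at 3693 to 5967 CPM in controls and 4921 to 6556 CPM at E4, and Pfkm at 116.4 to 173.8 CPM in controls and 121.6 to 166 CPM at E4. The astrocyte marker sum was 13930 to 16500 CPM in controls and 13870 to 16360 CPM at E4, and the oligodendrocyte sum 1378 to 4778 CPM and 2302 to 10600 CPM.

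The balance of the hexokinases did differ there. Hk2 was at 13.6, 28.98, 15.32, 19.74 and 13.49 CPM in controls, at 37.45 to 64.32 CPM at E1 (median 42.41) and at 34.2 to 64.82 CPM at E4 (median 50.36). All E1 and E4 libraries lay above all controls, but log2 changes of 1.38 and 1.44 did not pass over all genes (adjusted p of 0.2579 and 0.2115, edgeR). The ratio of Hk1 to Hk2 was 2.68-fold lower at E1 and 2.40-fold lower at E4 (exact permutation test, p = 0.002165 and 0.004329, adjusted 0.02381 and 0.0381). The ratio of Aldoa to Aldoc was 1.35-fold lower at E1 (exact permutation test, p = 0.006494, adjusted 0.04365). Myeloid markers summed to 34.84 to 95.57 CPM in these controls, 122.9 to 315.8 CPM at E1 and 128.6 to 579.5 CPM at E4, and their part in the Hk2 values was not tested.

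The difference in response between both regions was tested in the same fit. It was lower in spinal cord for 14 of the 31 genes at E4 and for 15 at Ech, where 8.56% and 7.2% of all genes differed in either direction. At E1 0 members differed with edgeR and 4 with DESeq2, 14 had an unadjusted p under 0.05, and 0.214% of all genes differed. Without E1 spinal cord replicate 2, 7 members differed at E1. The difference was -4.03 ± 0.36 on the log2 scale for Pfkm at E4 and -5.475 ± 0.55 for Pygm at Ech. That of Pdk2 at E4 was lost under 13 alternatives, with an adjusted p of 0.1294 (edgeR) without spinal cord control replicate 5. The difference of Eno2 at Ech was lost without spinal cord control replicate 2 (-1.66, adjusted p = 0.06416, edgeR).

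In hindbrain GLASTpos astrocytes 1 gene passed at E1, 1 at E4 and 0 at Ech, against 1.58%, 2.18% and 1.43% of all genes, and at Ech 2 passed with DESeq2 and 6 had an unadjusted p under 0.05. The gene at E1 and E4 was Pgam1 (log2 -4.42 ± 1.21 and -4.40 ± 1.21), which was at 383.6 and 227.8 CPM in control replicates 2 and 3 and at 3.27 to 6.63 CPM in the other controls. It did not pass without either of those libraries, nor without most of the single E1 or E4 libraries. No isoform ratio passed. Aldoc was at 6250 to 8590 CPM in controls and 8235 to 10750 CPM at E4. Hk2 was at 187.5 to 266.8 CPM in controls and at 79.26, 79.17, 214 and 129.4 CPM in the Ech libraries, where the ratio of Hk1 to Hk2 was 2.09-fold higher without passing (exact permutation test, p = 0.07143, adjusted 0.1571). Marker sums of oligodendrocytes and neurons did not overlap between these groups. The oligodendrocyte sum was 1154 to 1323 CPM in these controls and 2189 to 4193 CPM at Ech, the neuron sum 71.53 to 239.5 CPM and 318.2 to 638 CPM, and the Bergmann glia sum, which did overlap, 4503 to 5566 CPM and 2212 to 5155 CPM. Their part was not tested. Beside the members, Emb passed as higher at E1 and E4 (log2 5.23 ± 1.19 and 6.30 ± 1.23), from a maximum of 2.539 CPM in controls to medians of 6.761 and 8.361 CPM with single libraries at 91.45 and 240.6 CPM. The T cell marker sum was at most 8.158 CPM in these controls and reached 311.4 CPM at E1 and 564.5 CPM at E4, and its part in the Emb values was not tested. Hif1a passed as higher at Ech (1.17 ± 0.25).

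Without disease, GLASTpos and GLASTneg hindbrain astrocytes differed at the entry to the pathway. In controls 4 of the 31 genes were higher and 8 lower in GLASTpos cells, against 5.33% and 8.21% of all genes, whose median log2 difference was -0.11. Among genes averaging 5 CPM or more in that comparison about 12% were higher and 12.5% lower. The 4 higher of the 28 members at that level are near that share, and the 8 lower lie above theirs. Sheet numbers are 56 or less for all hindbrain GLASTneg libraries and 57 or more for all GLASTpos libraries, so whatever the number stands for and GLAST cannot be told apart. A set of 5 markers of Bergmann glia, the astrocytes of the cerebellar cortex, summed to 4503 to 5566 CPM in GLASTpos and 687.4 to 989.6 CPM in GLASTneg controls, and its part in these results was not tested.

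Hk2 was at 256.3, 266.8, 226.8, 219.9 and 187.5 CPM in GLASTpos controls against 13.49 to 28.98 CPM in GLASTneg controls, a 12.6-fold difference (log2 3.66 ± 0.51, adjusted p = 6.86e-08, edgeR). Hk1 was lower, at 79.29 to 159 CPM against 153.8 to 217.8 CPM (log2 -0.71 ± 0.24). There was a median of 11 Hk1 counts for each Hk2 count in GLASTneg controls and of 2.21 Hk2 counts for each Hk1 count in GLASTpos controls. The ratio differed 21.4-fold with no overlap (exact permutation test, p = 0.007937, the smallest that 5 against 5 can give, adjusted 0.04365).

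Pfkp was at 24.11, 7.58, 17.95, 25.9 and 18.9 CPM in GLASTpos controls and at 180.2, 215.8, 225.8, 318.6 and 330.5 CPM in GLASTneg controls, 13.4-fold lower (log2 -3.74 ± 0.41, adjusted p = 7.96e-11, edgeR). Pfkm was higher, at 216.6 to 261.7 CPM against 116.4 to 173.8 CPM (log2 0.73 ± 0.25). Slc2a1 was 4.70-fold lower in GLASTpos controls, at 38.04 to 55.18 CPM against 181.1 to 279.7 CPM, and Pfkfb3 was 2.63-fold lower.

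Ldha was at 80.01 to 132.2 CPM in GLASTpos and 29.44 to 65.27 CPM in GLASTneg controls (log2 1.17 ± 0.39), and the ratio of Ldha to Ldhb was 1.79-fold higher with no overlap (exact permutation test, p = 0.007937, adjusted 0.04365). Slc16a1 was 2.38-fold lower, at 45.48 to 73.37 CPM against 116.5 to 161.9 CPM. Of the glycogen genes Ppp1r3c (3.33-fold), Pygm (2.695-fold) and Gys1 (1.75-fold) were lower, and Pgam1 was higher (log2 4.21 ± 1.31), a call lost without GLASTpos control replicate 2 (3.16, adjusted p = 0.1052, edgeR). Beside the members, Hif1a (-2.07 ± 0.25) and Vegfa (-1.79 ± 0.36) were lower and Slc2a3 (1.87 ± 0.39) was higher. Without GLASTpos control replicate 2, 7 of the 31 genes passed. The calls of Hk1, Pfkm, Ldha and Gys1, with adjusted p of 0.0326, 0.0361, 0.0346 and 0.0422 (edgeR), were each lost without any of 6 or 7 single libraries, and that of Pfkm also with RLE scaling (0.05845).

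Control spinal cord and hindbrain GLASTneg astrocytes gave 3 calls. Eno2 was higher in spinal cord (log2 1.55 ± 0.44), and Hk2 (-1.68 ± 0.52) and Pygb (-0.9994 ± 0.21) were lower, where 3.09% and 2.25% of all genes were higher and lower. Among genes averaging 5 CPM or more in that comparison 6.32% were higher and 4.3% lower. The 1 higher and 2 lower of the 28 members at that level are near those shares. Without spinal cord control replicate 2, at 92.18 CPM, Eno2 did not pass (1.02, adjusted p = 0.227, edgeR), and Hk2 did not pass without any of 8 single libraries. Without hindbrain GLASTneg control replicate 2 only Pygb of the 31 genes passed. Sheet numbers were 60 to 83 in these spinal cord and 32 to 51 in these hindbrain controls, so whatever the number stands for and region cannot be told apart. The oligodendrocyte marker sum was 13820 to 39630 CPM in these spinal cord controls and 1378 to 4778 CPM in hindbrain, and its part was not tested.

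**Figure D4:**
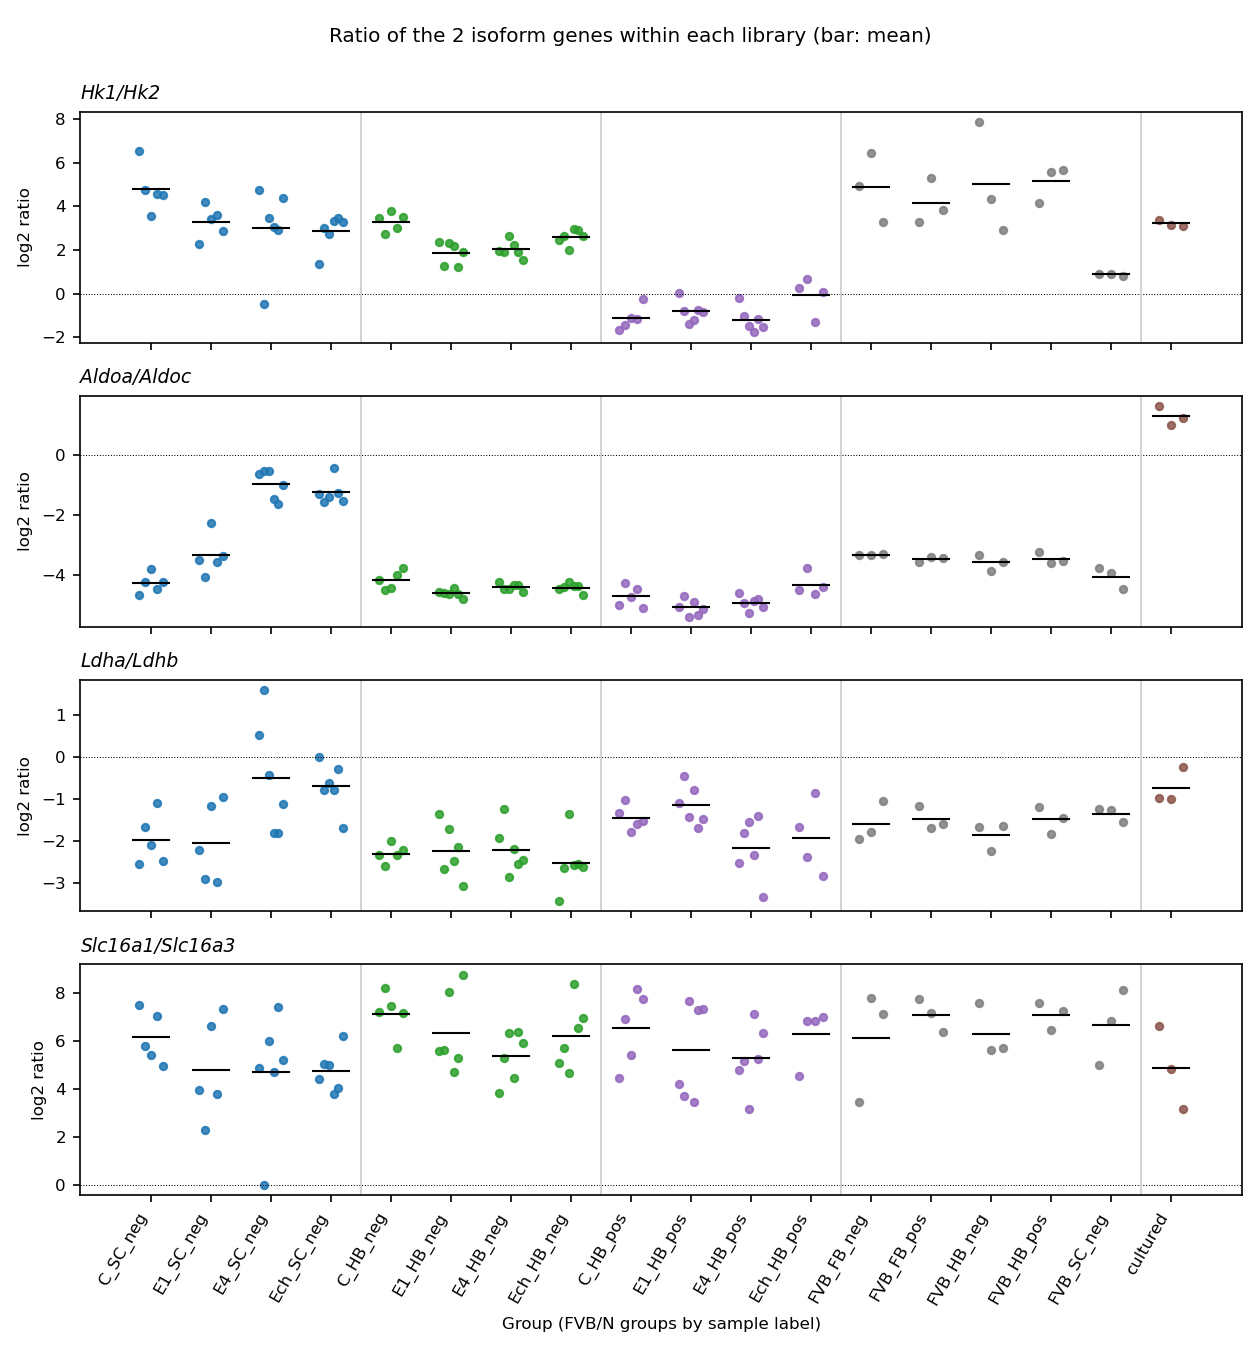
Log2 ratio of the isoform genes of 4 steps within each library (points, on counts plus 1), with the group mean as a bar, in the 12 EAE groups, the 5 FVB/N groups by label and the cultured astrocytes. The mean of Aldoa/Aldoc is -4.29 in control spinal cord, -0.98 at E4, -1.25 at Ech and 1.29 in culture, and the mean of Hk1/Hk2 is -1.12 in hindbrain GLASTpos controls against 3.29 in GLASTneg controls.

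Each FVB/N group was compared with the other 4. The libraries labelled spinal cord GLASTneg, which the authors' table names hindbrain GLASTpos, had 4 calls among the 29 genes tested, where 9.38% of all genes passed. Their Bergmann marker sum was 6604 to 8258 CPM against 660.9 to 1274 CPM in the other groups. Their sum of the Hox genes that mark spinal levels was 0 to 8.862 CPM. Both sums go with the authors' name and not with the label. Hk2 was at 81.82, 91.57 and 120.3 CPM in them and at 0 to 28.21 CPM in the other 12 libraries (log2 3.28 ± 0.46, adjusted p = 2.86e-08, edgeR). Pfkp was at 29.75, 62.03 and 105.3 CPM and at 198.5 CPM or more in all others (log2 -2.11 ± 0.26). Slc2a1 was lower (-1.39 ± 0.26), with 1 of its 3 libraries, at 270.8 CPM, within the range of the others. Pfkfb3 was lower too (-1.13 ± 0.32) and lost its call without replicate 1 (adjusted p = 0.1885).

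In the same libraries the ratio of Hk1 to Hk2 was 15.1-fold lower and that of Aldoa to Aldoc 1.52-fold lower than in the other 12 (exact permutation test, p = 0.002198 and 0.004396, adjusted 0.04396 for each over 20 tests). Neither ratio passed without any 1 of 14 of the 15 libraries, nor with medians in place of means (adjusted p = 0.1319 for each, exact permutation test). With 1 library fewer the smallest p that the test can give is larger, and a ratio at that p could not pass alone over 20 tests. These losses therefore do not measure how far the groups lie apart. The log2 ratio of Hk1 to Hk2 was 0.82 to 0.91 in these libraries and 2.93 or more in the other 12. Pfkp was 1.965-fold higher in the libraries labelled forebrain GLASTpos (named hindbrain GLASTneg), where 2.25% of all genes passed and the median log2 difference over all genes was 0.12, and lost its call without replicate 1 (adjusted p = 0.07107, edgeR). Ugp2 was 1.65-fold higher in those labelled hindbrain GLASTpos (named forebrain GLASTpos), where 3.29% did, and lost its call without any of 8 single libraries.

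In the libraries labelled forebrain GLASTneg in both sources 0 members passed with edgeR, 1 with DESeq2 and 4 at an unadjusted p under 0.05, where 1.53% of all genes passed. In those labelled hindbrain GLASTneg (named spinal cord GLASTneg) 0 passed with edgeR, 1 with DESeq2 and 4 at an unadjusted p under 0.05, where 5.22% did. The latter had a sum of 10 Hox genes, which mark spinal levels, of 712.5 to 759.4 CPM, which goes with the name spinal cord.

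**Figure D5:**
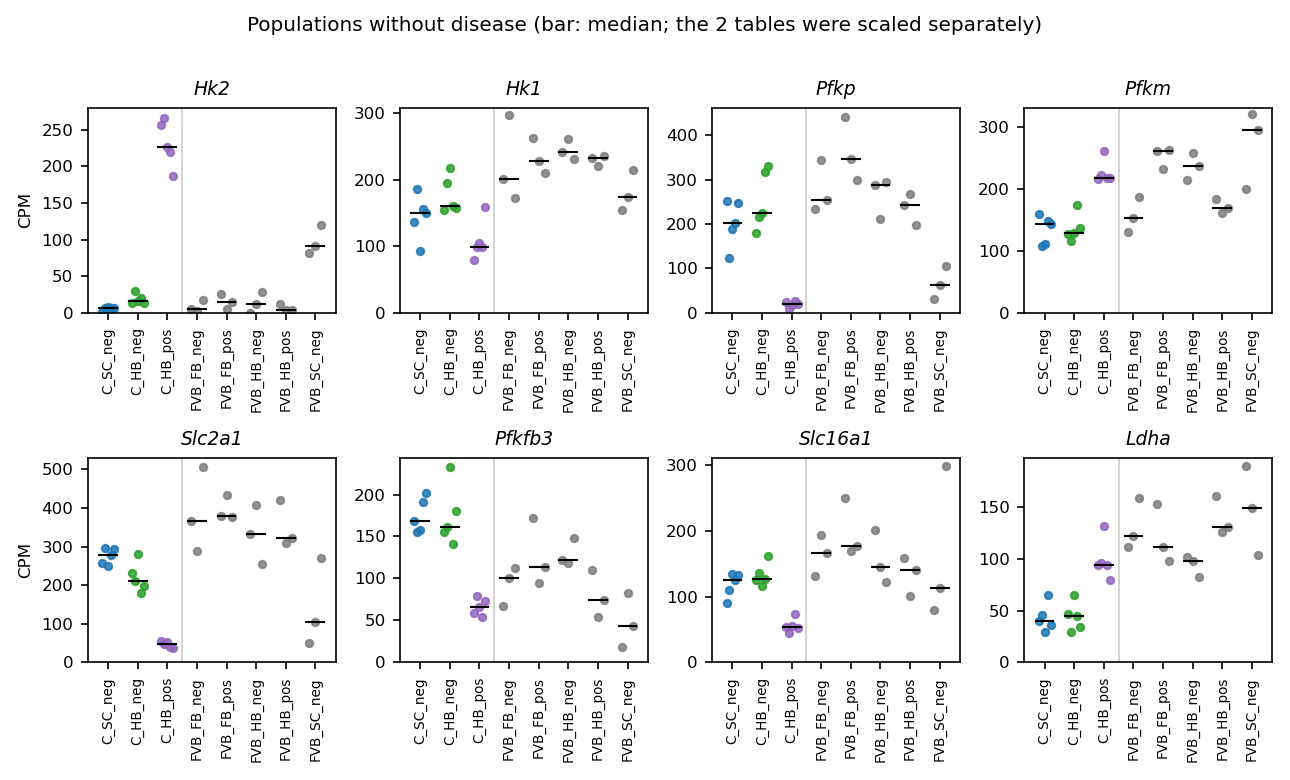
Level (CPM, points, with the median as a bar) of 8 genes in control C57BL/6J libraries (left of the line) and isolated FVB/N libraries by sample label (right). Hk2 is at 187.5 to 266.8 CPM in hindbrain GLASTpos controls (C_HB_pos) and at 81.82 to 120.3 CPM in the libraries labelled FVB_SC_neg. The authors' table names the latter hindbrain GLASTpos. Pfkp is at 7.58 to 25.9 CPM and 29.75 to 105.3 CPM in the same groups.

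Cultured astrocytes differed from isolated ones in the aldolase step. Against the mean of the 5 isolated groups, 8 of 30 genes were higher and 7 lower, where 26.3% and 9.79% of all genes were, and the median log2 difference over all genes was 0.43 against 0.14 over the members. The 8 higher genes are near the share of all genes and include Slc16a7, whose few counts are given below. Strain, age, region and culture cannot be told apart here. Astrocyte markers summed to 3574 to 4097 CPM in culture and 13650 to 18140 CPM in isolated libraries, and myeloid markers to 368.3 to 3001 CPM and 16.05 to 228.3 CPM, and their part was not tested.

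Aldoc was at 336.9, 484.3 and 490.9 CPM in culture and at 4787 to 8150 CPM in the isolated libraries, a 13.6-fold difference (log2 -3.77 ± 0.19, adjusted p = 4.72e-20, edgeR). Aldoa was at 1043, 967.4 and 1153 CPM against 256.8 to 649.1 CPM, 2.12-fold higher. There were 2.35 Aldoa counts for each Aldoc count in culture (median), and the ratio was 29.5-fold higher than in isolated libraries (exact permutation test, p = 0.001225, the smallest that 3 against 15 can give, adjusted 0.002451 over 4 tests). The ratio of Ldha to Ldhb was 1.76-fold higher (exact permutation test, p = 0.001225, adjusted 0.002451), although neither gene passed alone.

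Gbe1 (log2 1.80 ± 0.45), Pdk1 (1.28 ± 0.46), Pfkp (0.88 ± 0.21), Pkm (0.83 ± 0.21) and Pygb (0.655 ± 0.18) were higher in culture. Eno1 (-1.30 ± 0.41), Pfkm (-1.275 ± 0.22), Slc2a1 (-0.76 ± 0.27), Ugp2 (-0.67 ± 0.22), Ppp1r3c (-0.665 ± 0.23) and Pdk2 (-0.55 ± 0.22) were lower. Slc16a3 had 5, 62 and 81 counts in the cultured libraries, 10 counts in 1 isolated library, and 0 or 1 in the others. Slc16a7 had 2, 7 and 3 counts in culture and 0 in every isolated library, where 3 counts stand for 2.363 to 7.198 CPM, so no difference was measurable at this depth although its fit passed. Emb (4.685 ± 0.71) and Slc2a3 (2.78 ± 0.54) were higher in culture, and Vegfa (-4.96 ± 0.29), Ppp1r3d (-3.66 ± 0.34), Phkg1 (-3.11 ± 0.31) and Phka1 (-2.42 ± 0.31) were lower. Without cultured replicate 3, 8 of the 30 genes passed, and Slc2a1, Pkm, Pdk1, Pdk2, Pygb and Ugp2 were among those lost. Slc16a3 did not pass with DESeq2 (adjusted p = 0.08139).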

How the data were processed

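RNA of sorted and cultured mouse astrocytes was sequenced from transcript 3′ ends. The authors aligned the reads with HISAT 0.1.5 to GRCm38 and counted them per gene with HTSeq 0.6.1p1, and deposited raw counts, and the strand setting is not given in the sources used here. Counts of 10 of the 31 genes that overlap an exon on the opposite strand therefore cannot be told apart from that partner. The authors' table of normalized counts was used to compare library names alone. Groups were taken from the sample labels. Gene symbols were matched for 48058 of 48526 and 25608 of 25773 identifiers.

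Genes that reached 10 counts over the libraries of a fit were tested with edgeR 4.0.16 (R 4.3.3, TMM, quasi-likelihood test, Benjamini-Hochberg adjustment over all genes of a fit): 23324 genes in 66 EAE libraries, 14957 in 15 FVB/N libraries and 17126 in all 18 subtype libraries. DESeq2 1.42.0 was an alternative. Isoform ratios, log2 of counts plus 1, were compared by exact two-sided permutation tests (Python 3.11.15), adjusted over 44, 20 and 4 tests. Fits that left out a library kept the dispersion trend of the full fit. The test was tried on simulated counts for the spinal cord libraries alone, with the same spread for every gene and 200 changed genes. At E4 12% of genes with a log2 change of 1 and 98% with a change of 2 were recovered. These shares do not measure recovery in the fit of 66 libraries, which estimated the spread per gene. Values after ± are SE of the edgeR fit or, where marked, SD between libraries, and both include the spread between libraries. Floors of 3 counts cover counting error only.

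The members, gene lists and comparisons were chosen with earlier results of these data known. All members may be named. Of other pathway and hypoxia genes, the 4 with the largest change among those passing at E4 in spinal cord with a mean of at least 5 CPM are named, beside Bsg, Emb, Pygl, Slc2a3, Hif1a, Mpc1 and Mpc2. Alternatives were other scaling, filters, fits within a population, the sheet number, the replicate number as a block, other pseudocounts, group names and thinned cultured libraries. A limma-voom fit with a correlation between libraries that share a number in their names was added after seeing the data.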

Additional observations from a re-analysis of the deposited data

Results flagged for a closer look

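Of 372 groups of member values, 31 genes in each of the 12 EAE groups, 40 (10.8%) held a library that lay far from the others. Of these, 7 lay in E4 spinal cord replicate 2 and 5 in E1 spinal cord replicate 2. The rule gives about 5% by chance for normally distributed values. It was applied to CPM without a log scale, also for genes with few counts, so 10.8% does not show an excess. In E4 replicate 2 the high values were Hk2 (146.5 CPM), Gpi1 (185.5 CPM), Pfkl (42.68 CPM), Pgam1 (708.5 CPM), Pkm (579.1 CPM), Ldha (67.39 CPM) and Slc16a3 (92.1 CPM). Its myeloid marker sum of 4529 CPM, against medians of 30.96 CPM in controls and 153.8 CPM at E4, stands beside them, and its part was not tested. In E1 replicate 2 they were Hk1 (158.1 CPM), Pfkm (167.3 CPM), Aldoc (4557 CPM), Pygm (171.4 CPM) and Ppp1r3c (100.7 CPM), with an astrocyte marker sum of 12810 CPM.

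Single values far from their group were, in spinal cord, Hk2 (0.9915 CPM) and Pdk1 (28.75 CPM) in control replicate 1, Gbe1 (40.35 CPM) in control replicate 2, Ldhb (10.72 CPM) and Slc16a1 (150.1 CPM) in E4 replicate 1, Pygb (117.9 CPM) and Pygm (34.23 CPM) in E4 replicate 4, and Pgam1 (127.2 CPM) in Ech replicate 4. In hindbrain they were Slc16a3 (2.078 CPM) in GLASTneg control replicate 4, Pfkm (261.7 CPM) in GLASTpos control replicate 3 and Gbe1 (4.548 CPM) in GLASTpos control replicate 2. In hindbrain GLASTneg cells during EAE they were Pgam1 (243.3 CPM) in E4 replicate 2, Pdk2 (93.86 CPM) in E4 replicate 5, Ldha (76.72 CPM), Pdk4 (11.26 CPM) and Eno1 (478.2 CPM) in Ech replicates 3, 4 and 5. In GLASTpos cells they were Pgk1 (0 CPM), Pygm (49.72 CPM) and Ugp2 (209.6 CPM) in E1 replicates 1, 4 and 5, Hk1 (177.4 CPM) in E4 replicate 1, Gbe1 (14.27 CPM) in E4 replicate 5, and Slc16a3 (1.915 CPM) and Slc16a7 (9.573 CPM) in Ech replicate 1. E4 GLASTpos replicate 3 stood apart for Pfkfb3 (84.6 CPM), Eno1 (54.81 CPM), Slc16a3 (7.725 CPM), Slc16a7 (1.104 CPM) and Pygb (844.5 CPM).

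The response to EAE differed between spinal cord and hindbrain GLASTneg astrocytes in 29 tests (edgeR, interaction term), all lower in spinal cord. At E4 the log2 differences were Slc2a1 -2.387, Pfkm -4.028, Pfkp -3.327, Pfkfb3 -1.79, Aldoc -3.175, Tpi1 -1.835, Eno1 -3.23, Eno2 -2.405, Ldhb -2.849, Pdk2 -1.14, Pygb -1.966, Pygm -3.486, Gys1 -1.363 and Ppp1r3c -3.553. At Ech they were Slc2a1 -2.302, Gpi1 -1.13, Pfkm -3.134, Pfkp -3.462, Pfkfb3 -2.659, Aldoc -3.342, Tpi1 -1.427, Eno1 -2.472, Eno2 -2.186, Ldhb -1.911, Pdk2 -1.375, Pygb -2.823, Pygm -5.475, Gys1 -2.045 and Ppp1r3c -2.863. Of these, Pdk2 at E4 lost its call under 13 alternatives, Eno2 at E4 with limma-voom (adjusted p = 0.08238), and Eno2 at Ech without spinal cord control replicate 2 (-1.66, adjusted p = 0.06416, edgeR). The astrocyte marker sum was 2191 to 3798 CPM at E4 in spinal cord and 13870 to 16360 CPM in hindbrain, and its part was not tested.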

How the results depend on the processing

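No direction reversed. Of 2474 values of 116 called fold changes, 2306 kept their call and 168, of 40 fold changes, lost it. Of 24 values of 12 ratio differences, 14 kept their call. The cause of the following changes was not tested. With only the libraries of the same population 5 members passed at E1 in spinal cord (14 in the full fit), 2 at E1 and 2 at E4 in hindbrain GLASTneg cells and 1 at Ech in GLASTpos cells. With no filter on low counts 1 passed at E1 and 1 at E4 in hindbrain GLASTneg cells, 1 at Ech in GLASTpos cells and 1 in the E1 response difference. With DESeq2 2 passed at Ech in GLASTpos cells, 6 between spinal cord and hindbrain controls (3 in edgeR), 4 in the E1 response difference, and 1 each in the libraries labelled forebrain GLASTneg and hindbrain GLASTneg. With RLE scaling 0 passed in those labelled hindbrain GLASTpos. With the group names that the authors' table gives, 1, 4 and 0 passed under the names hindbrain GLASTneg, hindbrain GLASTpos and spinal cord GLASTneg (0, 1 and 4 by label). With medians in place of means 0 ratios passed in spinal cord, hindbrain GLASTneg, control and FVB/N comparisons.

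With the replicate number as a block 0 members passed at E1 and 0 at E4 in hindbrain GLASTpos cells, where 1 passed at each without it, and no other count moved by over 1.5 times. In culture Slc16a7 (adjusted p = 0.05372, edgeR) and Pdk2 (0.07735) lost their calls under the block. Taken over all groups and stages, samples of the same replicate number did not deviate together (mean r of -0.003 in EAE and -0.0023 in FVB/N libraries, lowest -0.1895). Some of them, such as replicate 4 of the E1 groups, also share a number in their bracketed names, so this mean cannot show that nothing else is shared. The block fits of FVB/N and cultured libraries estimated no spread per gene beyond the common trend. Numbers in the bracketed names link libraries of different populations, a check added after seeing the data. Their deviations had a mean r of 0.03372 over 49 linked pairs, 8 of them over 0.1, and -0.004981 over 314 other pairs. With limma-voom and a common correlation within linked libraries, estimated at 0.03663, 4 members passed in the E1 response difference, and 2 with limma-voom alone. The same 5 calls were lost in both fits, Pgam1 between GLASTpos and GLASTneg controls, Hk2 and Eno2 between spinal cord and hindbrain controls, and Eno2 and Pdk2 in the E4 response difference.

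Leaving out 1 library at a time gave 8 to 16 members in spinal cord at E1, 18 to 21 at E4 and 16 to 17 at Ech, 0 to 1 at E1 and 0 to 1 at E4 in hindbrain GLASTpos cells, 7 to 11 between GLASTpos and GLASTneg controls, 1 to 3 between spinal cord and hindbrain controls, 0 to 7 for the E1, 13 to 17 for the E4 and 14 to 17 for the Ech response difference, and 8 to 17 in culture (8 without cultured replicate 3), and 0 throughout in hindbrain GLASTneg cells and at Ech in GLASTpos cells. For the FVB/N labels it gave 0 to 1 in forebrain GLASTneg, 0 to 3 in forebrain GLASTpos (0 without its replicate 1, 3 without spinal cord replicate 3), 0 throughout in hindbrain GLASTneg, 0 to 1 in hindbrain GLASTpos and 3 to 5 in spinal cord GLASTneg. Ratios passing were 3 to 4 in spinal cord, 2 to 4 in hindbrain GLASTneg, 2 to 3 in controls, 0 to 2 in FVB/N (0 without any of 14 of the 15 libraries) and 1 to 3 in culture (1 without cultured replicate 3). In FVB/N a single ratio at the smallest p that the test can give could not pass with 1 library fewer. Depth limits the low genes: 3 counts stand for 0.613 to 2.284 CPM in EAE libraries and 2.363 to 7.198 CPM in FVB/N libraries.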
